A study of Mus musculus with 1617 samples.

Results

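Thalamic microglia of the mouse were compared between postnatal day 7 (P7) and late embryonic life (E18.5), over all genes of the deposited table. The cells were taken by their source name, which gives the region and the age: 44 cells were labelled thalamus P7 and 50 were labelled thalamus E18.5, all sequenced paired-end. Those with 1000 or more genes at 1 TPM or more, a length-corrected unit of transcript abundance, were kept, which left 42 cells at P7 and 34 at E18.5, or 76 of the 1617 cells of the series. The study sorted brain macrophages as CD45+ F4/80+ CD11b+ Ly6C- and sequenced each cell as its own library after capture on a Fluidigm C1 chip. No strain, genotype, sex, treatment or animal is given for either group, and the groups are described by region and age alone. Each age was 1 unbroken run of cell numbers, and the effects of age and of preparation cannot be told apart. Since no animal is named, each age counts as 1 sample, the cells are not replicates, and no test was made: differences below are differences between these 2 sets of cells, given with their spread over cells. Next to the threshold, the lowest kept cells held 1004 genes at E18.5 and 1147 at P7, and the highest cells left out held 865 and 871.

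Microglia are the resident macrophages of brain tissue. They enter the brain early in embryonic life, proliferate there, and take on a mature program around and after birth, marked by genes such as P2ry12, Tmem119 and Sall1, under the influence of CSF1 receptor and TGF-beta signalling. Fetal and early postnatal microglia are also known for a state found near growing axon tracts, with Spp1, Igf1 and lysosomal and lipid genes, which overlaps the program seen around amyloid plaques and called disease-associated. Border-associated macrophages, which live in the meninges and around vessels and carry F13a1, Lyve1, Mrc1 and Pf4, pass the same surface gate.

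TPM corrects reads for the length of the transcript and gives every cell the same total, so levels of different genes can be set side by side, but the reads behind a value are unknown and no interval for a level can be given. The kept cells held a median of 2381.5 genes at P7 (range 1147 to 3728) and 2832.5 at E18.5 (1004 to 3876). Mitochondrially encoded genes took a median of 4.90% of TPM at P7 and 7.74% at E18.5, with the highest cells at 53.4% and 57.2%. Below, a difference is the log2 ratio of mean TPM at P7 to mean TPM at E18.5, with 1 TPM added to both means, and a gene counts as measured where its mean reached 5 TPM at either age. A gene is called higher or lower at P7 past 1.5-fold when the difference of the mean of log2(TPM + 1) over cells had the same sign.

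The label was checked against markers. Of 26 genes of the homeostatic microglia list, 10 or more stood at 100 TPM or more in 37 of 42 cells at P7 (88.1%, exact Clopper-Pearson 95% interval 74.4 to 96.02%) and in 25 of 34 at E18.5 (73.5%, 55.6 to 87.1%); these intervals cover counting error over cells only. The 5 P7 cells below that number all had over 20% of their TPM in mitochondrial genes, from 30.7% to 53.4%. Of the 9 such E18.5 cells, 5 were also above 20%, 3 were rich in F13a1 and 1 was neither.

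At E18.5, 4 of 34 cells had F13a1, the coagulation factor XIII subunit that marks border-associated and fetal macrophages, at 100 TPM or more (11.8%, 3.30 to 27.5%). At P7 it was 0 of 42, which allows a share of up to 7.14%. These 4 cells held 8 to 13 of 21 border macrophage markers at 100 TPM or more, and no other thalamic cell held as many. Their Pf4, a platelet-factor chemokine, stood at 5205 to 18998 TPM and their Mrc1, the mannose receptor, at 1213 to 4707 TPM. Sall1 and Tmem119 were at 0 in them, but were seen in only 17 and 11 of all 34 E18.5 cells. Of the homeostatic genes the 4 cells held 7 to 10 at 100 TPM or more, against a median of 14 over E18.5 cells. Their P2ry12 ran from 0 to 600 TPM. By their border markers the 4 cells go against the microglia label at E18.5, though they also carry homeostatic genes. Results that rest on them are given with and without them. The summed level of the 21 border markers was 1.36 to 5159 TPM at P7 (median 596) and 2.25 to 39434 TPM at E18.5 (median 1119). Markers of monocytes, neutrophils, lymphocytes, dendritic and mast cells, neurons, neural progenitors, astrocytes, oligodendrocyte lineage, vessels and red cells never reached 3 at 100 TPM in one thalamic cell, and none of the red cell markers was measured.

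**Figure D1:**
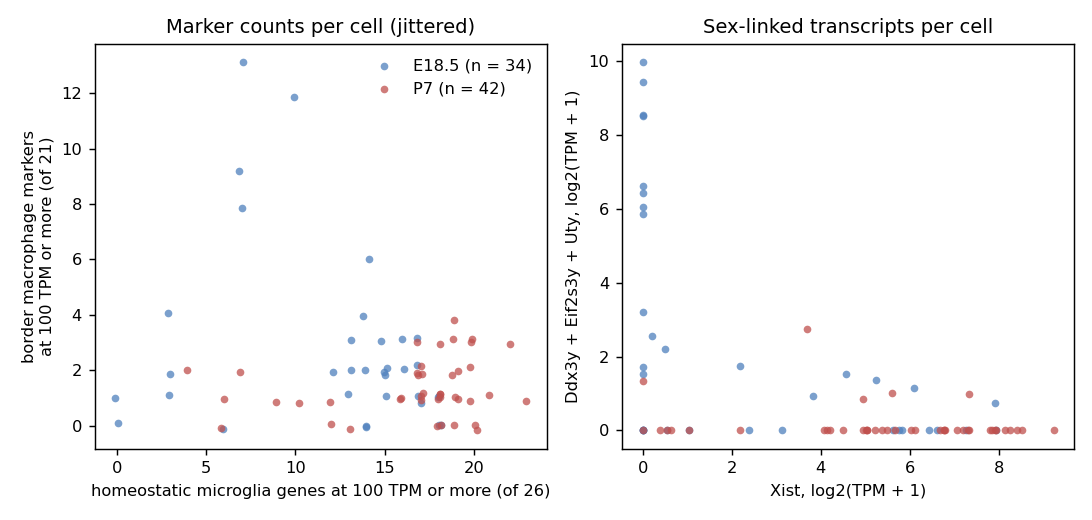
The left plot sets the number of border macrophage markers at 100 TPM or more (of 21) against that of homeostatic microglia genes (of 26) for each kept thalamic cell, with points spread slightly; 4 E18.5 cells hold 8 to 13 border markers, and no P7 cell holds more than 4. The right plot sets the summed TPM of 3 Y-linked genes against Xist on log2(TPM + 1) axes; 8 E18.5 cells and no P7 cell have a Y-linked gene at 10 TPM or more.

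Sex-linked transcripts also differed between the ages. Xist, the X-inactivation RNA, reached 1 TPM in 37 of 42 cells at P7 and 16 of 34 at E18.5. No P7 cell had Ddx3y, Eif2s3y or Uty, which are Y-linked, at 10 TPM or more, against 8 of 34 E18.5 cells (23.5%, 10.7 to 41.2%). The sex of the cells therefore moves with age, and its part in the differences was not tested. An E18.5 set of 16 cells with Xist at 1 TPM or more and no Y-linked gene at 10 TPM or more, called the Xist set below, was also compared with all P7 cells. Of the 16, 4 had a Y-linked gene at 1 TPM or more, at most at 2.32 TPM. The cells rich in F13a1 were not taken out of this set, and 14 of the 16 lay outside them.

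Over the 9437 measured genes, 3725 were higher at P7 (39.5%) and 2941 were lower (31.2%), and the median log2 ratio was 0.32. With cells weighted equally, by the difference of mean log2(TPM + 1) alone, 1596 genes were higher (16.9%), 1674 were lower (17.7%) and the median was 0.02. In full-length single-cell libraries a mean can rest on a few cells, and these shares are the background for the lists that follow. Long transcripts ran higher: the median log2 ratio was 0.53 in the longest group of genes by annotated length, 0.37 in the middle group and 0.13 in the shortest, over the 93.8% of measured genes with a length. What length has to do with the lists was not tested.

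**Figure D2:**
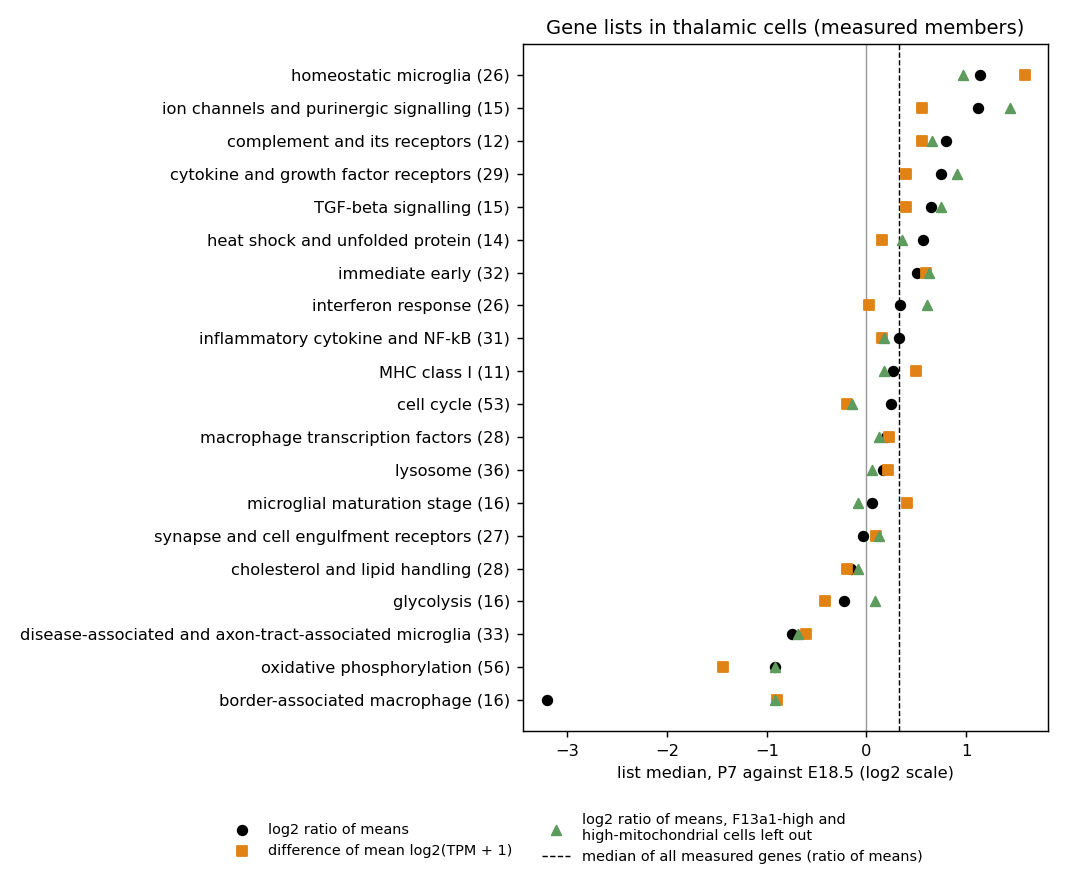
Each row is a gene list with at least 10 measured members (number in brackets), and points give the median log2 ratio of P7 to E18.5 over them by the ratio of means, by the difference of mean log2(TPM + 1), and without the F13a1-high and high-mitochondrial cells. Homeostatic microglia genes lie highest by the ratio of means (1.14) and oxidative phosphorylation and border macrophage genes lowest (-0.92 and -3.21), against a median of 0.32 over all measured genes (dashed line). Several border macrophage genes are measured only through the F13a1-high cells.

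The homeostatic microglia genes were higher at P7. Of 26 measured, 21 were higher and 0 lower; their median log2 ratio was 1.14 against 0.32 over all measured genes. P2ry12, the receptor by which microglial processes find ATP (chr3:59216272-59262871, build GRCm38), ran from 3.30 to 18341 TPM at P7 (median 6575) and from 0 to 6107 TPM at E18.5 (median 1050.1). Most P7 cells lay above the highest E18.5 cell, with an overlap at the low end. Its mean went from 1699 to 6592 TPM, a log2 ratio of 1.96, and it was seen at 1 TPM in 42 of 42 and 31 of 34 cells.

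Selplg, the P-selectin ligand (chr5:113818536-113832644), had the largest ratio of the list: its mean was 551.18 TPM at P7 and 35.8 at E18.5, a log2 ratio of 3.91. It reached 1 TPM in 37 of 42 P7 cells (median 359.18 TPM, highest 2105) and in 11 of 34 E18.5 cells (median 0, highest 509.36). Among cells with 1 TPM or more the Selplg median was 466.7 TPM at P7 and 28.5 TPM at E18.5. P2ry12 was thus present in nearly all cells at both ages and differed in level, while Selplg differed both in how many cells showed it and in its level in those cells.

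The other members were called by smaller ratios. Cst3, the secreted protease inhibitor cystatin C, was the most abundant, at a mean of 13538 against 3578 TPM (log2 ratio 1.92). Csf1r, the receptor that microglia need to survive, stood at 2469.5 against 747.60 TPM (1.72). Sparc, a secreted matrix protein, stood at 5023 against 1778 TPM (1.497). Tmem119, a membrane protein used as a microglia marker, was seen in 30 of 42 and 11 of 34 cells, with means of 612.46 and 205.9 TPM (1.57). Sall1, the transcription factor tied to microglial identity, was seen in 32 and 17 cells, with a log2 ratio of 1.18. The fractalkine receptor Cx3cr1 had a log2 ratio of 1.11.

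By the ratio of means the list was not uniform. Trem2, a lipid-sensing receptor, and its adaptor Tyrobp were not among the higher genes: their log2 ratios were 0.08 and -0.54, with means of 1224 against 1158 TPM and 4670.0 against 6793 TPM. Fcrls, an Fc receptor-like protein that was abundant at both ages, had a log2 ratio of -0.26. Rgs10 and Upk1b were the other 2 members called neither higher nor lower. By the difference of mean log2, 21 of 26 members were higher and 0 lower. By that measure Fcrls (0.74) and Rgs10 (0.72) were past 1.5-fold higher, and Trem2 was at 0.575.

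The list was also higher without the cells that went against the label. Without the 4 F13a1-high cells and the cells with 20% or more mitochondrial TPM, 36 cells at P7 and 25 at E18.5 remained, and 16 of 26 genes were higher, 1 was lower and the median was 0.97. Against the Xist set of E18.5 cells, 19 were higher, 1 was lower and the median was 1.198, next to 0.58 over all genes. By the difference of mean log2 the median was 1.59.

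**Figure D3:**
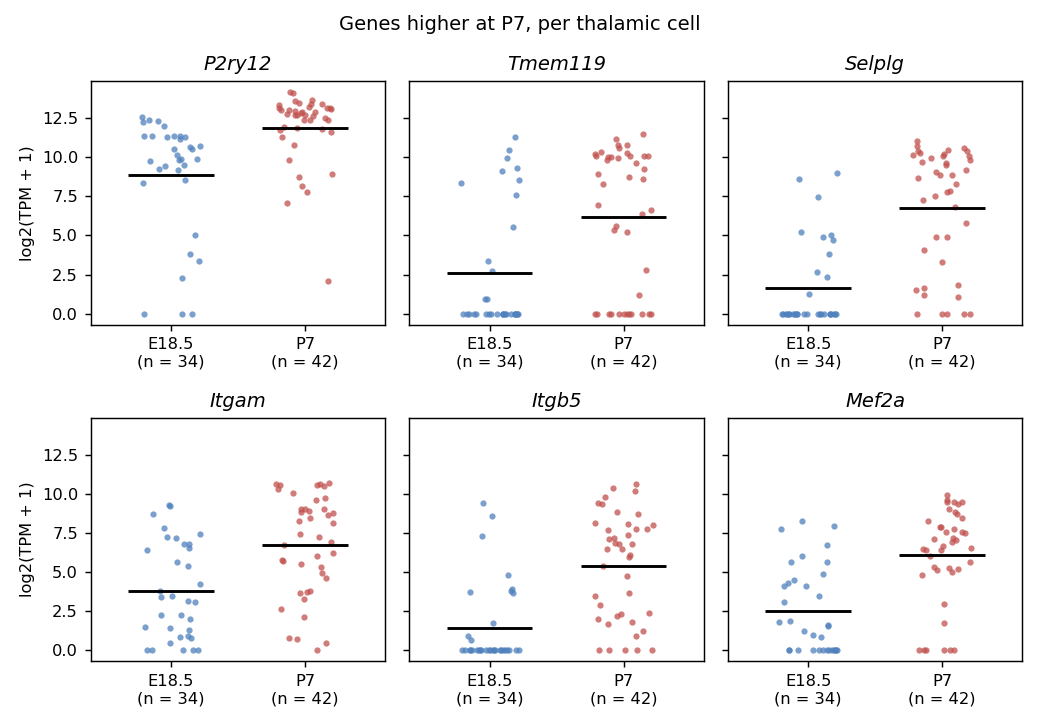
Each point is 1 thalamic cell and each line the mean of log2(TPM + 1) over the 34 E18.5 or 42 P7 cells. P2ry12 is present in most cells of both ages and lies higher at P7, while Selplg, Itgb5 and Mef2a sit at or near 0 in many E18.5 cells and are spread over a wide range at P7.

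Members of this list share a lineage in which the factor PU.1 acts, so the 250 bases upstream of their RefSeq starts (GRCm38.p6) were searched for its core motif GAGGAA on both strands. RefSeq entries matched 17 of the 26 genes, and 6 of these 17 held the motif in at least 1 upstream window. Over all genes with such windows, 25.9% of 27025 held it, and per window it was 23.3% of 32851 against 6 of 20 in the list. Those of 3 genes higher at P7 show what such windows look like, written 5′ to 3′ on the gene's strand with each match in capitals: Cst3 at chr2:148875513-148875762 (minus strand), P2ry13, a relative of P2ry12, at chr3:59210883-59211132 (minus strand), and the ectonucleotidase Entpd1, which breaks down extracellular ATP, at 1 of its starts at chr19:40659520-40659769 (plus strand).
Cst3: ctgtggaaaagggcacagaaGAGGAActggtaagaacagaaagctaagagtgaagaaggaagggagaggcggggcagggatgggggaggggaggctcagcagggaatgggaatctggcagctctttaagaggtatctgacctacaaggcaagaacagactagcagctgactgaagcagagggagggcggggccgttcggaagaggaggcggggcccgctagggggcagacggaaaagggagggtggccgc
P2ry13: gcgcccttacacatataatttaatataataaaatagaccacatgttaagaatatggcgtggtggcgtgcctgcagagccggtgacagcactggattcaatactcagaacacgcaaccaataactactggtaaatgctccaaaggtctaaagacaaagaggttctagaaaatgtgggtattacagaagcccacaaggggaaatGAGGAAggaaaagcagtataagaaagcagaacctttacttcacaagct
Entpd1: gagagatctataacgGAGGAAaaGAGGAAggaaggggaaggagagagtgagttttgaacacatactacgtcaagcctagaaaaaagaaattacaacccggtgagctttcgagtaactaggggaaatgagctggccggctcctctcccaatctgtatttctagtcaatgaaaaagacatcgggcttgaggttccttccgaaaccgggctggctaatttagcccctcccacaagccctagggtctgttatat
The Entpd1 window held 2 matches close together. P2ry13 stood at 1129 against 632.47 TPM (log2 ratio 0.83) and Entpd1 at 510.09 against 257.5 TPM (0.98). The windows shown were picked among those with a match. Those of Sparc, P2ry12 and Olfml3 held none, while those of Trem2 and Fcrls, which were not called higher, held 1 each. A match is a run of letters and says nothing of binding.

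Genes that mark stages of microglial maturation fell into both directions, with 7 of 16 measured members higher and 4 lower. Gpr165, an orphan G protein-coupled receptor of the later stage, was seen in 21 of 42 P7 cells and 2 of 34 E18.5 cells, with means of 114.6 and 16.9 TPM (log2 ratio 2.69). Mef2a, a transcription factor that acts on microglial enhancers, ran from 0 to 956.99 TPM at P7 (median 110.8) and from 0 to 307.73 TPM at E18.5 (median 2.01). Its mean was 218.2 against 34.4 TPM (2.63). Of the early genes, Mcm5, a replication helicase subunit, was seen in 2 and 6 cells, and Dab2, an endocytic adaptor that border macrophages also express, stood at 74.2 against 469.20 TPM (-2.65). The 4 F13a1-high cells held 61.7% of the Dab2 total at E18.5; without them its E18.5 mean was 203.9 TPM.

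Receptors by which microglia sense their surroundings were mostly higher. Of 15 measured ion channel and purinergic signalling genes 11 were higher and 0 lower (median 1.12), and of 29 cytokine and growth factor receptors and ligands 15 were higher and 2 lower (median 0.75). The ion channel and purinergic list shares at least Adora3 with the homeostatic list, so its count is not a separate result. Tnfrsf1b, a TNF receptor, was seen in 22 of 42 and 5 of 34 cells, at means of 133.4 and 11.5 TPM (3.43). The proton channel Hvcn1 stood at 107.4 against 8.38 TPM (3.53), but at 1 TPM or more in only 11 and 6 cells. The potassium channel Kcnk6 was seen in 15 and 2 cells (3.11). These channels were thus calls on a minority of cells, unlike the receptors of the homeostatic list.

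Of 15 measured TGF-beta signalling genes 8 were higher and 2 lower (median 0.65). Ski, a repressor of SMAD signalling, was seen in 21 of 42 and 4 of 34 cells at means of 55.1 and 3.38 TPM (3.68). Smad3, a signal transducer of the pathway, stood at 81.99 against 1.5 TPM (5.05) in 8 and 3 cells. Nrros, which holds latent TGF-beta at the microglial surface, had a log2 ratio of 1.66. Against the Xist set 10 of 15 were higher and 2 lower (median 1.62, next to 0.58 over all genes). In visual cortex, where 26% of all measured genes were higher and 43.4% lower at P7, 1 of 16 measured genes of this list was higher and 4 were lower (median -0.51), both below those shares.

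Complement and engulfment genes were mixed. Itgam, the CD11b chain of complement receptor 3 and 1 of the proteins the cells were sorted by (chr7:128062640-128118491), was seen in 38 of 42 P7 cells (median 161.5 TPM, highest 1645) and 25 of 34 E18.5 cells (median 8.72, highest 613.01). Its means were 441.68 and 85.6 TPM, a log2 ratio of 2.35, with wide overlap. The log2 ratio of means was 0.12 for Ptprc (CD45) and 0.04 for Emr1, the table's symbol for Adgre1 (F4/80), while their differences of mean log2 were 0.75 and -1.48, so the sort genes did not move as 1 group. Of 12 measured complement genes 7 were higher and 4 lower (median 0.79). The C1q chains, which tag synapses for removal and were chosen here after their values were seen, had log2 ratios of 0.88 for C1qa, 0.92 for C1qb and 1.43 for C1qc. C2, Cfp and Cfb, all lower, were seen in 1, 2 and 3 E18.5 cells; C2 and Cfp were listed at 0 in every P7 cell.

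Of 27 measured engulfment receptors 11 were higher and 5 lower (median -0.03). Itgb5, an integrin chain that binds cells coated with Mfge8, was seen in 36 of 42 and 9 of 34 cells and ran to 1609 and 674.77 TPM, with medians of 89.5 and 0. Its log2 ratio was 2.58. The scavenger receptors Msr1 and Cd36 were listed at 0 in all P7 cells and had E18.5 means of 67.7 and 57.7 TPM. The F13a1-high cells held 99.9% of the Msr1 total and 99.7% of the Cd36 total.

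Genes of the disease-associated and axon-tract-associated state were mostly lower at P7: of 33 measured, 17 were lower and 3 higher, and the median was -0.75. Plin2, the coat protein of lipid droplets (chr4:86648386-86670060), ran from 0 to 3091 TPM at E18.5 (median 425.15) and was seen in 25 of 34 cells. At P7 it was seen in 12 of 42 cells, with a median of 0 and a highest value of 559.21 TPM. Its means were 25.99 at P7 and 739.32 TPM at E18.5, a log2 ratio of -4.78. Outside the F13a1-high cells the E18.5 mean was 795 TPM, so the difference was as large without them.

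Igf1, the insulin-like growth factor that microglia supply to developing tissue, was seen in 15 of 34 cells at E18.5 (44.1%, 27.2 to 62.1%) and in 2 of 42 at P7 (4.76%, 0.582 to 16.2%). Its mean was 185.4 TPM at E18.5, 147.7 without the F13a1-high cells, against 0.213 TPM at P7, where the highest cell had 6.96 TPM; the log2 ratio was -7.26. The growth factor Csf1 was lower as well, at 8.27 against 107.9 TPM (-3.55), and less than 1% of its E18.5 total came from those cells. Lgals1, galectin-1, was listed at 0 in all 42 P7 cells and seen in 9 of 34 E18.5 cells, but the F13a1-high cells held 88.9% of its total. Vim, the intermediate filament vimentin, was likewise at 0 at P7, with 99.9% of its E18.5 total in those cells. Clec7a, a fungal-sugar receptor, was at 0 at P7 and seen in 4 E18.5 cells, none of them F13a1-high.

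Without the F13a1-high and high-mitochondrial cells, 17 of 32 measured genes of this list were lower and 5 higher (median -0.69). Against the Xist set 17 of 33 were lower and 5 higher (median -0.62), and without the 3 members listed at 0 the median over all kept cells was -0.59. Cd63, a tetraspanin of late endosomes that this list shares with the lysosome list (chr10:128900989-128912822), was seen in 35 of 42 and 29 of 34 cells with medians of 424.81 and 1666 TPM (-1.43). The lysosome list as a whole had 11 of 36 measured genes higher and 7 lower (median 0.16). Its largest ratio was that of the cathepsin Ctsf, seen in 26 and 4 cells at means of 171.2 and 10.7 TPM (3.88). Of 28 measured cholesterol and lipid handling genes 7 were higher and 9 lower (median -0.15). Apoc1, an apolipoprotein, was seen in 1 P7 cell and 8 E18.5 cells.

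**Figure D4:**
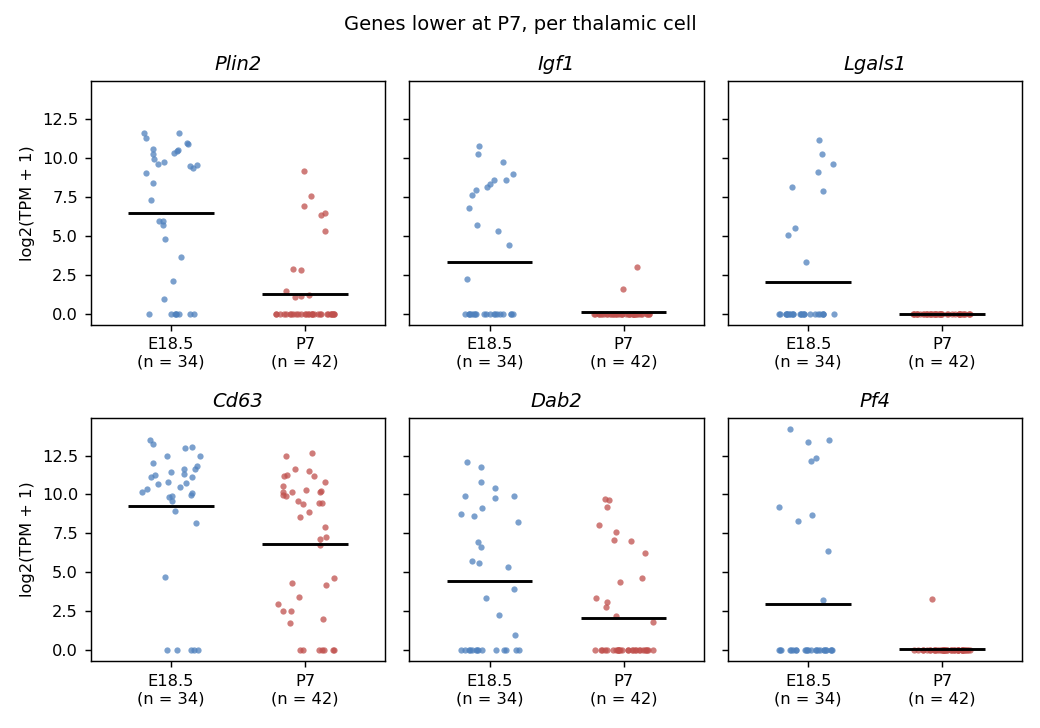
Each point is 1 thalamic cell and each line the mean of log2(TPM + 1) over the 34 E18.5 or 42 P7 cells. Plin2 and Igf1 are spread to high values at E18.5 and lie near 0 in most P7 cells, Lgals1 and Pf4 are high in a small set of E18.5 cells, and Cd63 and Dab2 overlap widely.

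All 16 measured border macrophage markers were lower at P7, with a median of -3.21 (-1.499 without the 8 listed at 0 at P7). Several counted as measured only through the F13a1-high cells, so their lower call was set by that filter. Without these cells 9 were measured, of which 6 were lower and 2 higher (median -0.86). Pf4 was seen in 10 E18.5 cells with a highest value of 18998 TPM and in 1 P7 cell at 8.67 TPM. The F13a1-high cells held 88.8% of its E18.5 total, and 6 of the other 30 E18.5 cells also had it, at a mean over the 30 of 196.04 TPM. Most of that mean came from the highest of these 6, with Pf4 at 4483 TPM. That cell had F13a1 at 47.3 TPM, below the cut, and held 4 border markers and 3 homeostatic genes at 100 TPM or more. Lyve1 and Cd163, a hyaluronan and a haemoglobin scavenger receptor, were at 0 at P7 and had 99.2% and 99.9% of their E18.5 totals in those 4 cells. Mrc1 was not confined to them: it was seen in 28 of 42 P7 cells and 23 of 34 E18.5 cells, with medians of 29.5 and 28.8 TPM. Without the F13a1-high and high-mitochondrial cells 10 markers were measured, of which 6 were lower and 2 higher (median -0.92). Against the Xist set 13 of 14 were lower, but that set still holds F13a1-high cells, with Pf4 at 10516 and 18998 TPM.

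Genes of oxidative phosphorylation, the mitochondrial ATP-making machinery, were lower at P7 as a group: of 56 measured nuclear-encoded genes 34 were lower and 4 higher, with a median of -0.92, and by the difference of mean log2 44 were lower and 2 higher. Cox7b, a subunit of cytochrome c oxidase, was seen in 11 of 42 and 21 of 34 cells, at means of 25.4 and 215.8 TPM (-3.04). Ndufa5 of complex I was seen in 8 and 17 cells, at 33.7 and 267.7 TPM (-2.95). Atp5e, an ATP synthase subunit, stood at 122.7 against 825.04 TPM (-2.74), though 1 E18.5 cell held 60.1% of its total. Without the F13a1-high and high-mitochondrial cells 36 were lower and 5 higher, with a median of -0.91, and against the Xist set 31 were lower and 7 higher (median -0.81). In visual cortex 20 of 56 were lower and 3 higher (median -0.43). Both shares were below the 43.4% lower and 26% higher among all genes measured there, whose median was -0.21.

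Ribosomal protein genes moved the same way: of 88 measured, 39 were lower and 4 higher (median -0.55), and they took a median of 5.67% of TPM at P7 and 8.54% at E18.5. Of 16 measured glycolysis genes 3 were higher and 4 lower (median -0.23). Gapdh, a glycolytic enzyme, had medians of 88.3 and 913.80 TPM and was seen in 34 of 42 and 31 of 34 cells (-1.40). Tpi1, triosephosphate isomerase, was seen in 6 and 15 cells (-2.22). Hspd1, the mitochondrial chaperonin, was lower too, at 16.6 against 187.8 TPM (-3.42).

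**Figure D5:**
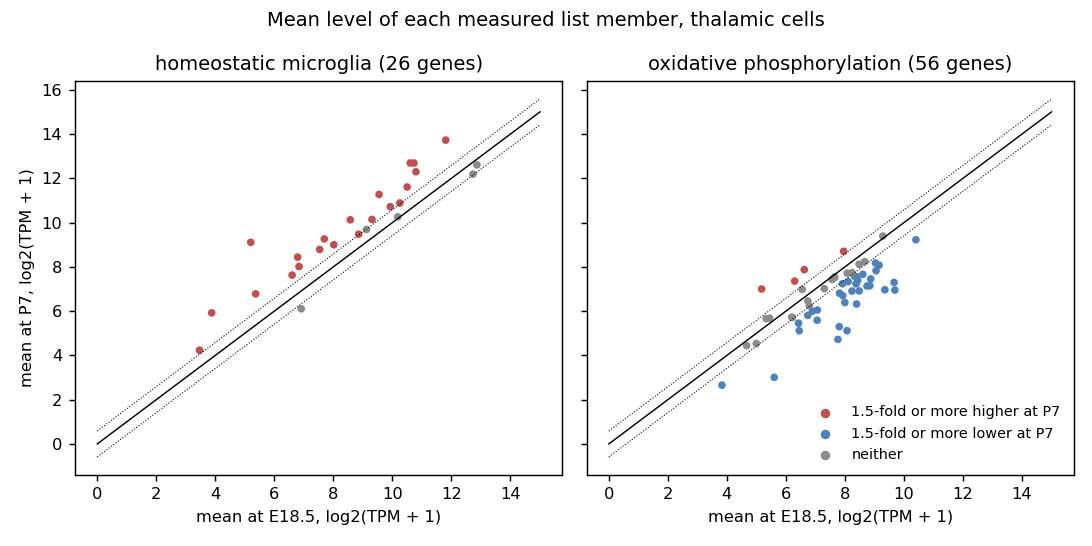
Each point is a measured gene, with its mean at E18.5 on the horizontal and at P7 on the vertical axis, both as log2(mean TPM + 1); the solid line marks equal means and the dotted lines 1.5-fold. Of the 26 homeostatic microglia genes 21 are marked higher, and of the 56 oxidative phosphorylation genes 34 are marked lower and 4 higher.

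The counts of higher and lower cell cycle genes, and those of all measured genes, differed between settings. Of 53 measured, 12 were higher and 12 lower; the median was 0.25 by the ratio of means and -0.19 by the difference of mean log2, which called 5 higher and 11 lower. It was 10 higher and 17 lower of 52 without the F13a1-high and high-mitochondrial cells, 9 higher and 19 lower of 54 against the Xist set, and 24 higher and 11 lower of 51 with all 44 and 50 cells. Among all measured genes 39.5% were higher and 31.2% lower in the kept cells, and 51.1% and 23.3% with all cells. With all cells the median was 0.79 both for the list and for all genes. Mki67, a marker of dividing cells, was seen in 14 of 42 P7 cells (33.3%, 19.6 to 49.5%) and 8 of 34 E18.5 cells (23.5%, 10.7 to 41.2%), and Top2a, the DNA topoisomerase of dividing cells, in 17 (40.5%, 25.6 to 56.7%) and 11 (32.4%, 17.4 to 50.5%). These intervals overlap widely. Cells with 10 or more cell cycle genes at 100 TPM or more made up 5 of 42 at P7 (11.9%, 3.98 to 25.6%) and 10 of 34 at E18.5 (29.4%, 15.1 to 47.5%), which ran the other way, also with overlapping intervals. In these 10 and 5 cells P2ry12 was present throughout, at medians of 1652 and 7621 TPM, and 1 of the E18.5 cells was F13a1-high, with P2ry12 at 9.13 TPM. Without the F13a1-high cells it was 9 of 30 E18.5 cells (30%, 14.7 to 49.4%), with P2ry12 at 677.9 TPM or more in each. Of single genes, the thymidine kinase Tk1 was seen in 12 and 2 cells (4.74) and the replication factor Gins2 in 4 and 10 (-4.13).

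Of 32 measured immediate early genes, which respond quickly to a stimulus, 14 were higher and 4 lower (median 0.51), against 39.5% and 31.2% of all measured genes. By the difference of mean log2 16 were higher and 4 lower, against 16.9% and 17.7% of all genes, and without the F13a1-high and high-mitochondrial cells 18 of 31 were higher and 3 lower, against 40.2% and 30.7%. The list thus had few lower genes in each of these settings. Junb, an AP-1 subunit (chr8:84974484-84978718), was seen in 32 of 42 and 11 of 34 cells with medians of 23.6 and 0 TPM, and its means were 353.56 and 65.5 TPM (2.42). Atf3, a stress-induced factor, ran to 5763 and 1856 TPM with medians of 237.5 and 17.3 (1.83). Ier2 had a log2 ratio of 1.90. In visual cortex the list ran the other way, with 4 of 30 higher and 19 lower (median -1.58), and Junb, Atf3 and Ier2 had log2 ratios of -2.76, -1.95 and -3.62.

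Inflammatory and interferon genes were split. Of 31 measured inflammatory cytokine and NF-kB genes 11 were higher and 8 lower (median 0.32), and of 26 interferon response genes 11 were higher and 9 lower (median 0.33), next to a median of 0.32 over all measured genes. Rela, an NF-kB subunit, was seen in 11 and 3 cells (4.87), whereas Relb rested on 1 P7 cell with 98.03% of its total. The neutrophil chemokine Cxcl2 was at 0 at P7 and seen in 6 E18.5 cells. Ifitm3, an antiviral membrane protein, was seen in 2 P7 and 7 E18.5 cells, at means of 0.580 and 159.7 TPM (-6.67). Of 5 measured class II antigen presentation genes 4 were higher and 1 lower, in few cells: H2-DMa, a peptide-loading chain, was seen in 14 of 42 and 4 of 34 cells. Of 11 class I genes 3 were higher and 1 lower, and H2-D1 had a log2 ratio of 0.87. Of 14 measured heat shock and unfolded protein genes 7 were higher and 4 lower (median 0.57), among them Atf4, the integrated stress response factor, at 322.83 against 79.03 TPM (2.02).

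Of 28 measured macrophage transcription factors 9 were higher and 4 lower (median 0.19). Beside Mef2a and Sall1, Fli1, an ETS factor, stood at 252.2 against 51.6 TPM (2.27), with 1 P7 cell holding 49.7% of the total. Bhlhe41 was seen in 37 of 42 and 30 of 34 cells at medians of 82.6 and 26.3 TPM (1.43). Tfec, a relative of the lysosomal regulator TFEB, was lower (-2.93) and seen in 2 and 4 cells. The F13a1-high cells held 69.2% of its E18.5 total, and without them its E18.5 mean was 10.2 TPM. The fetal and imprinted list had 8 measured members, 2 higher and 5 lower, and its median turned from -2.54 to 0.18 without the F13a1-high and high-mitochondrial cells.

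Ranked by ratio over all genes, the genes higher at P7 were led by ones seen in few cells. Safb, a nuclear scaffold protein, had a log2 ratio of 6.74 but was seen in 13 of 42 P7 cells, 1 of which held 87.1% of the total. Adprh, an ADP-ribosyl hydrolase, followed at 6.34 and was seen in 17 of 42 and 6 of 34 cells. The other 10 of the first 12 were Gpcpd1, Pgrmc1, Alkbh1, Prrc2a, Mum1, Asb6, Stard3, Hist1h1e, Vkorc1 and Cse1l, with log2 ratios of 4.87 to 5.81, each seen in 11 to 17 of 42 P7 cells and with a P7 median of 0. The lower side was led by Pf4 (-10.32), Lgals1, Igf1 (-7.26) and Lilrb4, an inhibitory receptor (-6.66), with 76.2% of its E18.5 total in the F13a1-high cells. Cep162, a centriolar protein, was seen in 18 of 34 E18.5 cells and 5 of 42 P7 cells (-6.50). Eno1b was seen in 21 and 3 (-5.91), but it is a near-identical copy of the glycolytic gene Eno1, and reads of the pair may be split between them. The rest of that side were Lage3, Mettl10, Fxyd5, Kin, Nfic and Syf2, with 1 cell holding 93.8% of the E18.5 total of Syf2.

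A ranking by the share of cells with 1 TPM or more, added after the data were seen, gave genes with a broader base. On the higher side stood Itgb5, Selplg, Ctsf, Gpr165 and Junb, given above, and Tanc2, Gpr56, Hmha1, Nav3 and Akr1b10. Gpr56, an adhesion receptor, was seen in 26 of 42 and 5 of 34 cells with medians of 32.9 and 0 TPM (2.08). Nav3, a cytoskeletal protein, was seen in 31 and 10 (3.20) and Tanc2, a scaffold protein, in 37 and 12 (1.83). On the lower side Pcdh15, a protocadherin, was seen in 22 of 34 E18.5 and 4 of 42 P7 cells, with medians of 88.1 and 0 TPM (-2.91). Fstl1, a secreted follistatin-like protein, was seen in 24 and 11 (-2.74), and Dynll1, a dynein light chain, in 23 and 6 (-2.68). Renbp, Vps29, Anxa5, Commd4, Plin2, Eno1b and Cep162 completed it. Of these, Anxa5, an annexin, had 68.98% of its E18.5 total in the F13a1-high cells, and its log2 ratio turned from -1.02 to 0.47 without them.

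Visual cortex, with 28 of 32 cells kept at P7 and 16 of 22 at E18.5, gave the only other comparison of these ages; of 21 hippocampal E18.5 cells 1 was kept, and no comparison was made. There 2280 of 8759 measured genes were higher at P7 (26%) and 3804 lower (43.4%), and the kept cells held medians of 2085.5 genes at P7 and 3336 at E18.5. Of 7350 genes measured in both regions, 2806 were higher in thalamus and 1849 in visual cortex, and 879 were higher in both, which is 31.3% of the thalamic set and 47.5% of the cortical one. Another 1076 of the thalamic 2806 (38.3%) were lower in visual cortex. Of 2103 lower in thalamus and 2979 in visual cortex 915 were shared, 43.5% and 30.7% of each. Over all 7350 genes, 25.2% were higher in visual cortex and 40.5% were lower. By the ratio of means, the 38.3% with opposite sign and the 43.5% lower in both were thus close to the share of lower genes there. By the difference of mean log2, 62.4% of the genes lower in thalamus were lower in visual cortex, against 46.9% of all. Of the genes higher in thalamus by that measure, 18.8% were higher in visual cortex, against 9.69% of all, and 41.1% were lower. These regions were not tested against each other.

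The homeostatic microglia genes were also higher in visual cortex, where 20 of 25 measured members were higher and 1 lower (median 1.46), with log2 ratios of 5.21 for Selplg and 3.79 for P2ry12. Itgam and Gpr165 were higher in both, at 3.28 and 4.71 in visual cortex, while Mef2a was -0.13 there. Plin2 and Igf1 were lower in both, at -2.05 and -1.38, and the disease-associated and axon-tract-associated list had 5 of 36 higher and 10 lower in visual cortex (median -0.12), a share of lower genes below the 43.4% of all genes. The C1q chains were not higher there, at -1.52 for C1qa, -0.18 for C1qb and -0.31 for C1qc.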

How the data were processed

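Single thalamic macrophages were captured with the Fluidigm C1 system, and the labels' protocols name Nextera XT for the libraries. The authors deposited 1 table of TPM values for 43280 genes, whose columns used here summed to 997741 to 1000000. The submitters' processing notes name RSEM 1.2.19, Seurat and build GRCm38, with aligner, annotation and filters not given in the sources used here. Of the table's columns 203 were used (thalamus, visual cortex and hippocampus at P7 and E18.5, matched by title) and 1414 were not. No 2 of those used were identical. TPM keeps no depth and there are no molecular identifiers, so cells could not be thinned to a common depth and no doublet caller was run. Strand is not given, so overlapping genes cannot be separated.

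Cells were grouped by labelled region and age, and log2 ratios of mean TPM were computed after adding 1 TPM to each mean, so that differences of low genes are understated. Measured means, calls and cell minimums are as given in the report. Shares used 1, 10 or 100 TPM with 95% intervals by the exact Clopper-Pearson method, and a share of 0 is given with the limit of 3 counts; both cover counting error only. The members, the 34 gene lists and the rules were chosen with earlier results of these data known. Named genes are the 12 largest ratios in each direction with a mean of 50 TPM, 1 TPM in 25% of cells of the higher group and a call that holds without the highest cell, and up to 4 members of each list with a mean of 20 TPM, taken by size, beside the defining markers; Y-linked, mitochondrial, ribosomal, predicted genes and Xist were kept out of the first ranking. The alternatives without F13a1-high, high-mitochondrial or Y-positive cells, the rescaling without mitochondrial genes and the ranking by share of cells were added after seeing the data. Others were the pseudocount, low-value filter, cell filter, summary over cells, fold and scaling. Coordinates and lengths are from GENCODE M21, which matched 39379 names (91.0%). The values of 1 gene are not reported here. The calculation was tested on simulated data. The tools were matplotlib 3.10.9, scipy 1.17.1, pandas 2.3.3 and numpy 2.4.6 under Python 3.11.15.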

Additional observations from a re-analysis of the deposited data

Results flagged for a closer look

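Some named genes called in thalamus had the opposite sign in visual cortex at the same ages by both measures. The ratio of means was past 1.5-fold in both regions, while the difference of mean log2 needed only the opposite sign. The difference between the regions was not tested, since each age and region is 1 sample. Opposite signs were common by the ratio of means: 38.3% of the genes higher in thalamus were lower in visual cortex, against 40.5% of all genes measured in both. Of the genes lower in thalamus 20.7% were higher in visual cortex, against 25.2% of all. By the difference of mean log2 these shares were 41.1% against 46.9%, and 5.45% against 9.69%. Of the genes with the largest ratios, Adprh had a log2 ratio of 6.34 in thalamus and -1.80 in visual cortex, Pgrmc1 5.75 and -1.38, Alkbh1 5.56 and -1.97, and Hist1h1e 4.97 and -2.38, while Kin, a DNA-binding protein, had -5.27 and 1.99. Each of these was seen in at most 17 of 42 thalamic P7 cells.

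The same held for 3 immediate early genes: Junb had 2.42 in thalamus and -2.76 in visual cortex, Ier2 1.90 and -3.62, and Atf3 1.83 and -1.95. The helicase gene Mcm5 had -4.11 and 1.89, and Sall3, a relative of Sall1, had 2.05 and -1.84. Median genes per cell were lower at P7 than at E18.5 in both regions, with a larger gap in visual cortex. They were 2381.5 at P7 and 2832.5 at E18.5 in thalamus, and 2085.5 and 3336 in visual cortex. The part of genes per cell in these signs was not tested.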

How the results depend on the processing

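No paired analysis was possible because the labels give no animal, litter or replicate number. With 1 sample per age, no replicate could be left out. Counts of genes higher and lower, 3725 and 2941, became 2450 and 1858 with a mean of 20 TPM or more (fewer genes tested) and 1596 and 1674 by the difference of mean log2. With all 44 and 50 cells they were 4702 and 2142, the share of higher among calls went from 55.9% to 68.7%, and the median of all genes was 0.79. Rescaling by the median ratio moved that median from 0.32 to 0.19. The other settings kept both counts within 1.5 times. Log2 ratios of single named genes were less stable. With a pseudocount of 10 TPM, 76 moved past 1.5-fold without turning and 57 did not move. Without the highest cell it was 66 and 65, and against the Xist set 61 and 71. By the difference of mean log2 only 20 stayed within 1.5-fold of their ratio of means. Median-ratio rescaling moved 0. The median of the inflammatory list was 0.93 with all cells. With no minimum mean the interferon and complement medians turned to -0.27 and -0.016, and neural progenitor, astrocyte and endothelial lists to 0.089, -0.28 and -0.087. With a mean of 20 TPM or more fetal, astrocyte and oligodendrocyte lists turned to 0.25, -1.84 and -1.27. Pfkfb3 turned to -0.027 with all cells, and Psmb8 to -0.56 and Mx1 to 0.015 by the difference of mean log2. Without the highest cell, Mx1 was 0.62 and Ms4a4c -3.82. Ms4a4c was also -5.48 in cells with 2000 or more genes (none had over 5000), -0.62 by the difference of mean log2 and -0.032 in the Xist set. Anxa5 turned to 0.47 without the F13a1-high cells and 0.44 without these and high-mitochondrial cells, where the fetal list and Hmga1 were at 0.18. Against the Xist set (no Y-linked gene at 10 TPM or more), the fetal and sex lists were at 0.11 and 0.62. These sets have few members or cells; the cause was not tested. Without members listed at 0 in a group, medians were 0.90 for complement, 0.47 for interferon, 0.48 for immediate early, 0.08 for engulfment, -0.12 for lipid, -1.12 for fetal and 2.71 for class II genes. TPM keeps no depth, so a value of 0 limits nothing below it.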

Other observations

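Single genes of other lineages were present in cells that otherwise carried the microglial markers. Ighm, the immunoglobulin heavy chain gene, was seen at 1 TPM or more in 28 of 42 P7 and 23 of 34 E18.5 cells at means of 894.62 and 583.14 TPM, and Cd79b, a B cell receptor chain, in 19 and 15 at 333.43 and 234.4 TPM. No thalamic cell held 3 or more of the 21 lymphocyte markers at 100 TPM. In visual cortex Ighm had means of 1439.9 and 821.72 TPM at P7 and E18.5. Csf3r, the G-CSF receptor of the neutrophil list, was seen in 25 and 14 thalamic cells, and Tcf7l2, a Wnt pathway factor of the neuron list, in 14 and 22, more widely at E18.5.

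The gene minimum removed 16 of 50 E18.5 cells and 2 of 44 P7 cells, and no result above describes them.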
